A study of Mus musculus with 60 samples.

Results

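In a 16S rRNA gene survey of mouse stool, colon, lung and mouth, 7.60% of the 8574 sequence features carried no bacterial or archaeal assignment. Chloroplast and mitochondria lineages are counted here as no such assignment, whatever ranks stand above them. These features fell into 2 classes, which were described apart. The first, called unlisted features below, has no line in the taxonomy table used here. It made up 7.22% of all features: 598 with a count in colon or lung and 21 found only in stool or swabs. The second, called labelled features, held 33 features that do have a line but whose lineage is chloroplast (19 features), mitochondria (8), eukaryote (1) or unassigned (5). Membership was decided by the presence and wording of the taxonomy line alone, without reference to counts or sites. The other 7922 features, called classified below, are 7919 bacterial and 3 archaeal ones.

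The study followed gut and lung bacteria in 12 male mice. Of these, 6 were given polyethylene terephthalate nanoparticles (PET, a common packaging and fibre polymer) by daily gavage for 28 days, 0.5 mg in 0.1 ml each time. The other 6 are labelled as not exposed. The sources used here name neither the strain, nor the age, nor any vehicle given to the controls. Libraries were made from stool after 1 week and from stool, colon tissue, lung tissue and oral swabs at day 28, with 6 PET and 6 control libraries of each, 60 in all. Libraries are named below by site, arm and a number that was given in accession order and marks no animal. The label numbers of 4 libraries form a separate block, and what it stands for is not given. They are stool day 28 control 6, stool day 28 PET 6, lung control 5 and lung control 6.

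The 16S rRNA gene is shared by all bacteria and archaea, and its variable stretches tell taxa apart. Chloroplasts and mitochondria descend from bacteria and keep their own version of the gene, so primers made for bacteria can also copy plant material from food and, in samples rich in host DNA, sequences of the host. Surveys therefore usually set organelle and unplaced features aside before communities are compared. Each feature is 1 distinct amplicon sequence, and its count is the number of reads with that sequence in a library. All values below are shares of a library's counts, so a share can rise because the feature is more frequent or because other sequences are scarcer.

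Libraries held 10543 to 326834 counts in lung, 59063 to 280575 in colon, 119454 to 428830 in oral swabs and 16521 to 1083575 in stool. Per the labels, stool and swabs were extracted with a soil kit but both tissues with a blood and tissue kit, so extraction kit and kind of sample cannot be told apart. Muribacter and Streptococcus, genera of the rodent mouth, together made up 40.2% to 94.3% of the counts of each swab and at most 4.62% of any library from another site. The swab library PET 5 stood apart: 4.18% of its counts lay in unlisted features, against at most 0.0990% in any other swab. Its oral genera made up 47.99% of its counts. Comparisons that turn on swab counts are therefore also given without this library.

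Unlisted features held 119825 of 17193842 counts (0.697%), and 93.9% of those counts came from colon and lung, which held 17.1% of all counts. In colon the 6 control libraries had 0.333%, 5.42%, 1.66%, 2.42%, 1.89% and 1.86% of their counts in unlisted features. The 6 colon PET libraries had 7.63%, 3.03%, 4.90%, 5.18%, 5.48% and 0.709%. In lung the control libraries had 1.66%, 1.53%, 18.2%, 3.46%, 2.22% and 33.96%. Lung control 6 was the highest of all 60 libraries and control 3 was near the top of the PET range, while the other 4 lung controls lay below every lung PET library. The lung PET libraries had 7.55%, 19.4%, 13.6%, 5.93%, 19.6% and 4.28%.

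Stool held almost none of this class. At day 28 the stool shares ran from 0% to 0.00488%, with at least 1 unlisted count in 11 of 12 libraries. At week 1 they ran from 0% to 0.00348%, with a count in 7 of 12 libraries. In swabs the control libraries had 0.0207%, 0.00236%, 0.00857%, 0.0233%, 0.0252% and 0.00925%. The swab PET libraries had 0.00670%, 0.0761%, 0.0491%, 0.00729%, 4.18% and 0.0990%. The order of the sites by pooled share was lung (5.44%), colon (2.79%), swab (0.193%, or 0.0333% without PET 5), stool at day 28 (0.00275%) and stool at week 1 (0.00108%).

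**Figure D1:**
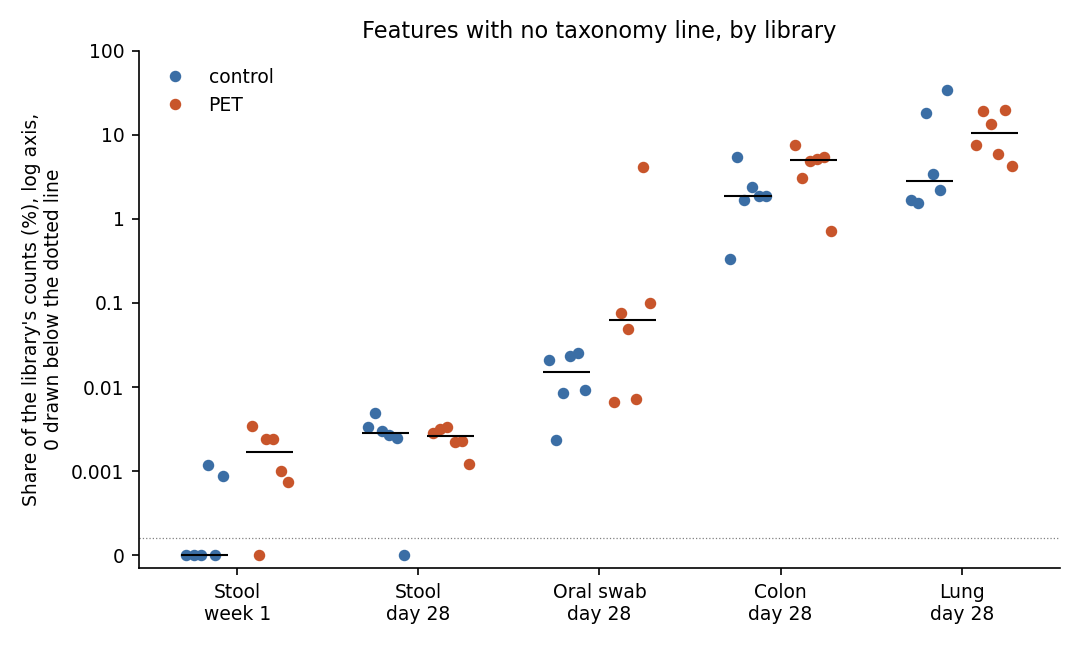
Share of each library's counts in features with no taxonomy line, in percent on a log axis with 0 drawn below the dotted line; each point is 1 library, blue for control and orange for PET, and black lines are group medians (6 libraries per group). All colon and lung libraries lie above all stool libraries, and swab PET 5, at 4.18%, is the only swab within the range of colon and lung.

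The shares were compared on the scale log2((class counts + 0.5)/(library total + 1)) by two-sided permutation tests, adjusted by Benjamini-Hochberg over 32 tests of 4 measures between sites. Colon exceeded stool at day 28 by 10.12 ± 0.54 log2 units (SE, n = 12 libraries each, permutation p = 1e-05, the smallest that 100000 resamples can give, adjusted 0.000107). Lung exceeded stool by 11.59 ± 0.58 (permutation p = 1e-05, adjusted 0.000107). In both comparisons the lowest tissue library lay above the highest stool library. Swab exceeded stool by 3.63 ± 0.88 (permutation, adjusted p = 0.000128), and by 2.97 without swab PET 5 (permutation, adjusted p = 9.14e-05). Colon exceeded swab by 6.49 ± 0.88 and lung exceeded swab by 7.96 ± 0.91 (permutation, adjusted p = 0.000137 for each). Without swab PET 5 these differences were 7.15 and 8.62 (permutation, adjusted p = 6.4e-05 for each), and colon and lung then did not overlap the swabs.

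Tissue as a whole, 24 libraries, exceeded stool and swab at day 28, 24 libraries, by 9.04 ± 0.66 log2 units (permutation p = 1e-05, adjusted 0.000107), or by 9.43 without swab PET 5 (permutation, adjusted p = 6.4e-05). Lung exceeded colon by 1.47 ± 0.59 (n = 12 each, permutation, adjusted p = 0.0471). This call was not stable: it was lost on leaving out any of 14 of the 24 libraries, among them lung control 6 (1.26, permutation, adjusted p = 0.0782), lung control 3 (1.34, adjusted p = 0.0702) and colon control 1 (1.21, adjusted p = 0.0812), and it was also lost when each arm was tested alone. Stool at day 28 and at week 1 differed by 1.66 ± 0.69 (permutation, adjusted p = 0.0544), which missed the threshold of 0.05. That comparison passed without stool day 28 control 6, the only day 28 stool library with no unlisted count (2.01, permutation, adjusted p = 0.00917). The study had 12 mice, so the 24 tissue libraries, and likewise the 24 stool and swab libraries, cannot all come from different animals. The labels do not say which libraries share a mouse. The standard errors and p-values of all comparisons between sites treat libraries as independent and measure the spread between libraries only, and those over 24 libraries a side may be too small.

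The number of different unlisted features was likewise higher in colon and lung than in stool. At a common depth, each library thinned to the lowest total of the comparison, colon held 53.4 ± 27.6 unlisted features (SD, n = 12) where stool at day 28 held 0.895 ± 0.410 (permutation p = 1e-05, adjusted 5.33e-05 over 16 tests). Lung held 42.4 ± 25.5 where stool held 0.248 ± 0.112 at the lower depth of that comparison (permutation p = 1e-05, adjusted 5.33e-05). Lung and colon at their own common depth held 42.4 and 30.9 features, a difference that did not pass (permutation, adjusted p = 0.267). Stool at day 28 held 0.366 ± 0.165 unlisted features and stool at week 1 held 0.148 ± 0.167 (SD, n = 12 each, permutation, adjusted p = 0.00962). Both means lie below 1 feature a library, at a depth of 16521 counts set by 1 week 1 library. Without thinning, stool showed 5 different unlisted features in all at week 1 and 4 at day 28.

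Most unlisted features were seen in tissue and nowhere else. Of all unlisted features, 542 (87.6%) were detected only in colon or lung, 56 in tissue and also in stool or swab, and 21 (3.39%) only in stool or swab. Among classified features 42.6% were seen only in tissue and 39.5% only outside it. Colon libraries showed 355 unlisted features and lung libraries 371, and those found in both were 36.1% of the colon set and 34.5% of the lung set. Classified features shared between the tissues were 33.4% of the colon set and 16.4% of the lung set. Swabs showed 76 unlisted features, but 25 without swab PET 5. Stool showed 5 at week 1 and 4 at day 28.

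A single feature carried most of the class. U1 (identifier starting a92afa87; unlisted features are numbered by total count) held 81805 counts, 68.3% of all unlisted counts, and was detected in 53 of 60 libraries. In colon it made up 0.213%, 3.73%, 1.20%, 1.58%, 1.27% and 1.37% of the control libraries and 5.12%, 2.00%, 3.44%, 3.50%, 3.53% and 0.507% of the PET libraries. In lung it made up 1.11%, 1.07%, 10.7%, 2.17%, 1.71% and 30.5% of the controls and 5.10%, 12.0%, 9.43%, 4.24%, 12.2% and 2.87% of the PET libraries. It was thus present in all 24 tissue libraries, with its highest share in lung control 6. In stool at day 28 its highest share was 0.00334%, so that the lowest tissue share lay above every stool share.

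The next features were much rarer than U1 but recurred with it. U2 (1a5a7556) held 10118 counts in 37 libraries, U3 3363 in 27, U4 3070 in 28, U5 2527 in 25 and U6 2010 in 29. U7 held 1285 counts in 26 libraries, U8 974 in 23, U9 910 in 22 and U10 701 in 18. U1, U2, U4 and U6 were present in all 12 libraries of both tissues. Across single libraries U1 held 63.9% to 73.8% of the unlisted counts in colon (68.2 ± 3.23, SD, n = 12) and 58.8% to 89.7% in lung (68.7 ± 8.25). The 10 leading features together held 90.7 ± 2.52% of them in colon and 89.4 ± 5.17% in lung.

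The proportions among the leading features overlapped between the 2 tissues, and their difference was not tested. U2 stood at a median of 12.4% of U1 in colon (range 8.91% to 17.5%, 12 libraries) and 12.9% in lung (4.67% to 16.7%). U4 stood at a median of 4.48% of U1 in colon and 3.55% in lung. U3 stood at 2.21% in colon and 4.65% in lung, U7 at 2.18% and 0.983%, and U9 at 0.941% and 0.109%, so the medians of these 3 lay over 2-fold apart while their ranges overlapped. U9 was the most uneven of the 10, with 721 counts in colon and 143 in lung, and 51.3% of its total came from the single library colon control 2.

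**Figure D2:**
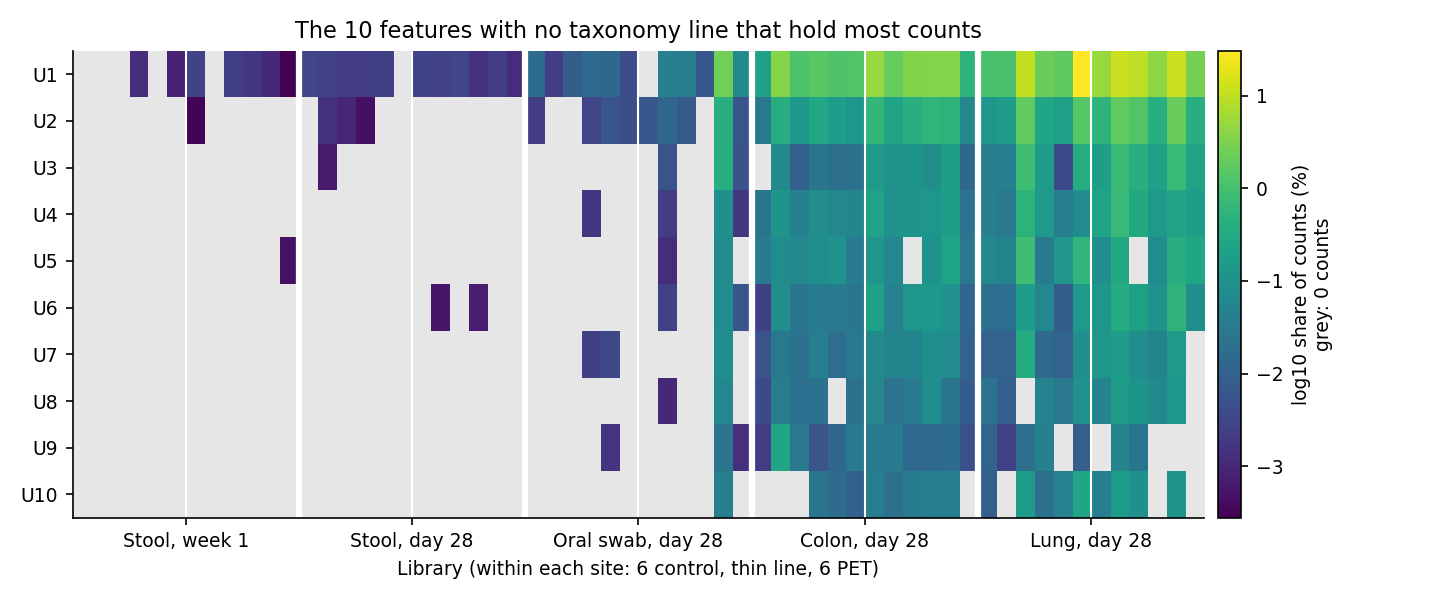
Share of counts (log10 of percent, colour scale; grey is 0 counts) of the 10 features with no taxonomy line that hold most counts, U1 to U10, in rows, over the 60 libraries in columns, grouped by site with 6 control libraries left of each thin line and 6 PET libraries right of it. U1 to U10 fill nearly all colon and lung columns, U1 also appears faintly in most stool and swab columns, and swab PET 5, the next to last swab column, shows all 10.

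Swab PET 5 carried all 10 leading features, with U2 but not U3 at a proportion to U1 seen in tissue. Of its 62 unlisted features, 49 also occurred in a tissue library and 11 in another swab. Of the 76 unlisted features of all swabs, PET 5 included, 20 occurred at no other site. It held 5881 of the 7052 unlisted swab counts (83.4%). Its U2 stood at 15.9% of U1, within the range of colon and lung, while U3 stood at 16.4%, above the highest tissue value of 8.25%. Of its 390 classified features, 317 (81.3%) also occurred in tissue. The same shares were not taken for each of the other swabs. Burkholderia-Caballeronia-Paraburkholderia, a genus label of soil and water bacteria, made up 1.94% of its counts against at most 0.792% in any other swab and a median of 1.91% in tissue. Sphingomonas made up 0.256%, against at most 0.0854% in any other swab and a median of 0.602% in tissue. Leifsonia made up 0.331%, against at most 0.191% and a median of 0.290%. Whether material of another sample entered this library was not tested.

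The share of U1 was set against those of classified genera across libraries, and only the closest labels are named. Of 184 genus labels compared over all 60 libraries, the highest Spearman rho with U1 was that of Burkholderia-Caballeronia-Paraburkholderia (0.84), followed by Sphingomonas (0.84), a genus of soil, water and plants, and Leifsonia (0.84). U2, U3 and U4 had their highest rho with Sphingomonas (0.85, 0.83 and 0.84), with Burkholderia-Caballeronia-Paraburkholderia next at 0.85, 0.82 and 0.84, and U5 had its highest with the latter (0.76). These values are descriptions: the 60 points mix sites with very different levels, and shares within a library are tied to 1 total. Within the 24 tissue libraries, only labels picked over all 60 libraries were compared. There the rho of U1 was 0.80 with Burkholderia-Caballeronia-Paraburkholderia, 0.62 with Sphingomonas and 0.77 with Leifsonia. The order changed there for the others: U2, U3 and U4 stood closer to Burkholderia-Caballeronia-Paraburkholderia (0.83, 0.87 and 0.84) than to Sphingomonas (0.66, 0.75 and 0.80), and U5 closer to Clostridium sensu stricto 1, a genus label of gut bacteria (0.73), than to Burkholderia-Caballeronia-Paraburkholderia (0.50). Among the 10 leading features, U1 was most like U2 (rho 0.92, 60 libraries) and least like U9 (0.69). Burkholderia-Caballeronia-Paraburkholderia itself made up a median of 1.91% of tissue libraries and 0.0147% of stool and swab libraries.

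Recurrence was judged by the number of libraries in which a feature had a count. Of the unlisted features 431 (69.6%) were seen in 1 library, as were 73.8% of the classified features. At 10 or more libraries stood 26 unlisted features (4.20%) and 9.75% of classified features. Unlisted features were, however, mostly rare, with a median total of 9 counts against 45 for classified features, and at like totals they recurred more often. Of unlisted features with 20 to 99 counts, 29.2% were seen in 1 library, against 85.7% of classified features. None of the 24 with at least 100 and under 1000 counts was seen in a single library, against 55.1% of classified ones. The 7 features with 1000 counts or more were found in a median of 28 libraries, against 17 for classified features. Below 5 counts nearly all features of both kinds were seen in 1 library (98.2% and 99.9%). These shares are descriptions, and the features are not independent of each other. Classified features were pooled over all sites, while 93.9% of the unlisted counts came from colon and lung. The comparison was not matched for site or depth.

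**Figure D3:**
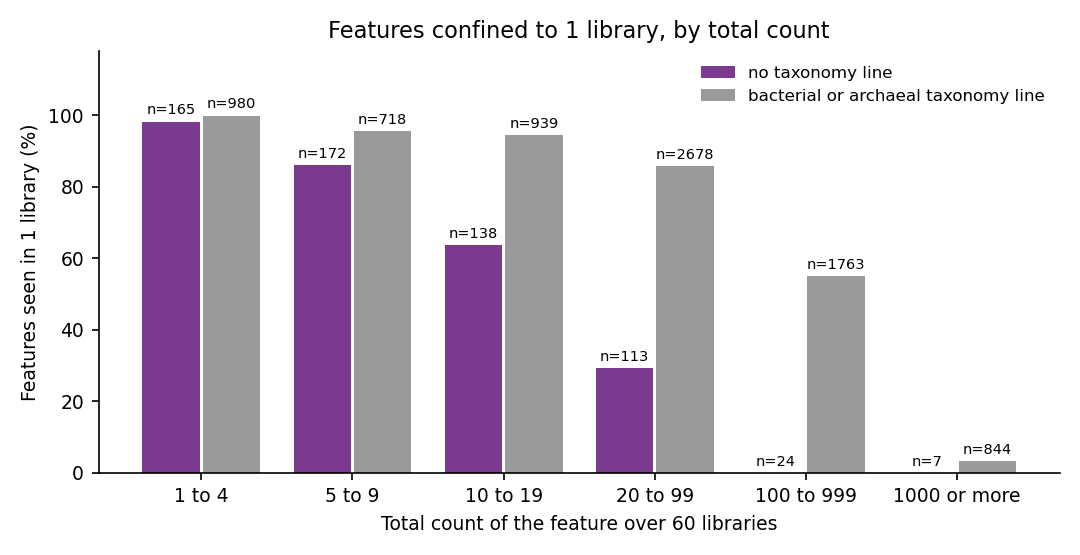
Percentage of features detected in 1 library of 60, by the feature's total count, for features with no taxonomy line (purple) and classified features (grey), with the number of features above each bar. From 10 counts upward the purple bars are lower, at 63.8% against 94.4% for 10 to 19 counts and at 0% for features of 100 counts or more.

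Counts of single features were also compared between tissue and stool with swab at day 28, in a fit by edgeR of all 1576 features with at least 10 counts and a count in at least 3 of the 48 libraries. In that fit 12.2% of all features tested were called higher in tissue and 11.7% lower, at an adjusted p under 0.05. Of the unlisted features 17.1% passed the filter on low counts, and 62 of these had 0 counts in stool and swab, so that their direction followed from the filter. The fit compared the mean of 4 tissue groups with that of 4 other groups, and where groups on both sides hold 0 counts it gives no estimate: this was so for 1125 of the 1576 features (71.4%), whose p lay above 0.99 whatever their counts. Among the unlisted features that passed the filter, 38 had an estimate, and all 38 were called higher in tissue and 0 lower. Of these only U1 had counts in all 4 stool and swab groups. The others had an estimate because all 4 tissue groups held counts while a stool or swab group held 0. Their direction thus largely followed from that rule, and 38 of 38 is not read as support. For the other 68 the fit says nothing. Of the 38, 11 had 0 counts in stool and swab, or 25 without swab PET 5. Library totals served as normalization. With TMM instead, 24.9% of the called features were higher in tissue, against 51.2%, and the median change of all features tested went from -0.31 to -1.05 log2 units. The count of unlisted features called was again 38 higher and 0 lower, under the same rule for an estimate. DESeq2 called 28 of the 38 higher, and gave no adjusted p for 62 of the unlisted features tested. A fit by edgeR with tissue as 1 term, added after seeing the data, called 100 (94.3%) of the unlisted features tested higher and 0 lower, beside 31.7% of all features higher and 26.2% lower. Of the 100, 62 had 0 counts in stool and swab, so that their direction followed from the filter.

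U1 was higher in tissue by 8.36 ± 0.93 log2 units (SE, edgeR adjusted p = 2.53e-16). U2 was higher by 8.31 ± 1.20 (edgeR adjusted p = 1.23e-09) and U5 by 9.37 ± 1.40 (edgeR adjusted p = 4.37e-09). Each SE is the change divided by the square root of the F statistic. U2 had 0 counts in day 28 stool PET libraries, and U5 had 0 in day 28 stool and in swab controls. The direction of both thus largely followed from the rule for an estimate, and their sizes depend on how the fit treats empty groups. Without swab PET 5 the changes of U1, U2 and U5 were 9.32, 9.19 and 10.72. As a ratio of pooled shares, U1 was 51.5-fold higher in tissue, and 251-fold without swab PET 5. Without that library U3 went from 12.9-fold to 183-fold, U4 from 56.5-fold to 411-fold and U5 from 65.3-fold to 1426-fold, the last with 5 counts left in 1 swab or stool library. U18, U20 and U21, with 240, 214 and 202 tissue counts in 10, 12 and 14 libraries, had no count in stool or swab at day 28. Against a floor of 3 counts over those 24 libraries they were at least 240-fold, 214-fold and 202-fold higher in tissue. With no count outside tissue they passed the filter through tissue alone. Their direction thus followed from the filter, and these folds are not read as support. Floors and intervals cover counting error only, since PCR reads without molecular identifiers are not independent molecules.

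Within each tissue the unlisted share was set against the library total, and with all 12 libraries neither relation passed the correction. In colon the log2 share and log10 library total gave a Pearson r of -0.74 (n = 12, permutation p = 0.00684, adjusted 0.137 over 20 relations; Spearman rho = -0.68, permutation p = 0.0191, adjusted 0.127). Without the 2 libraries of most extreme total r was -0.68 (permutation p = 0.0348, unadjusted). In lung r was -0.69 (n = 12, permutation p = 0.0147, adjusted 0.147) and rho -0.71 (permutation p = 0.0117, adjusted 0.127). Without the 2 most extreme libraries r was -0.90 (permutation p = 0.00066, unadjusted), which is low enough to pass over 20 relations. The lung relation did not hold within both arms: r was -0.96 in the 6 control libraries and 0.14 in the 6 PET libraries. In colon r was -0.53 in control and -0.83 in PET libraries.

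The share has the library total as its denominator, so the relation was also taken between counts that share none. The log10 unlisted counts and the log10 classified counts gave r = -0.39 in colon (n = 12, permutation p = 0.208; rho -0.37, permutation p = 0.236) and 0.29 in lung (permutation p = 0.392; rho 0.15, permutation p = 0.651). Neither passed, and the sign differed between the tissues. In day 28 stool, where a library held few unlisted counts, r was 0.61 (n = 12, permutation p = 0.0457, adjusted 0.229 over 10 relations) and rho 0.83 (permutation p = 0.00144, adjusted 0.0144), and r was 0.83 without the 2 libraries of most extreme total. The number of unlisted features detected did not follow depth in colon (r = -0.33, permutation p = 0.295, n = 12) or lung (r = 0.24, permutation p = 0.441).

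**Figure D4:**
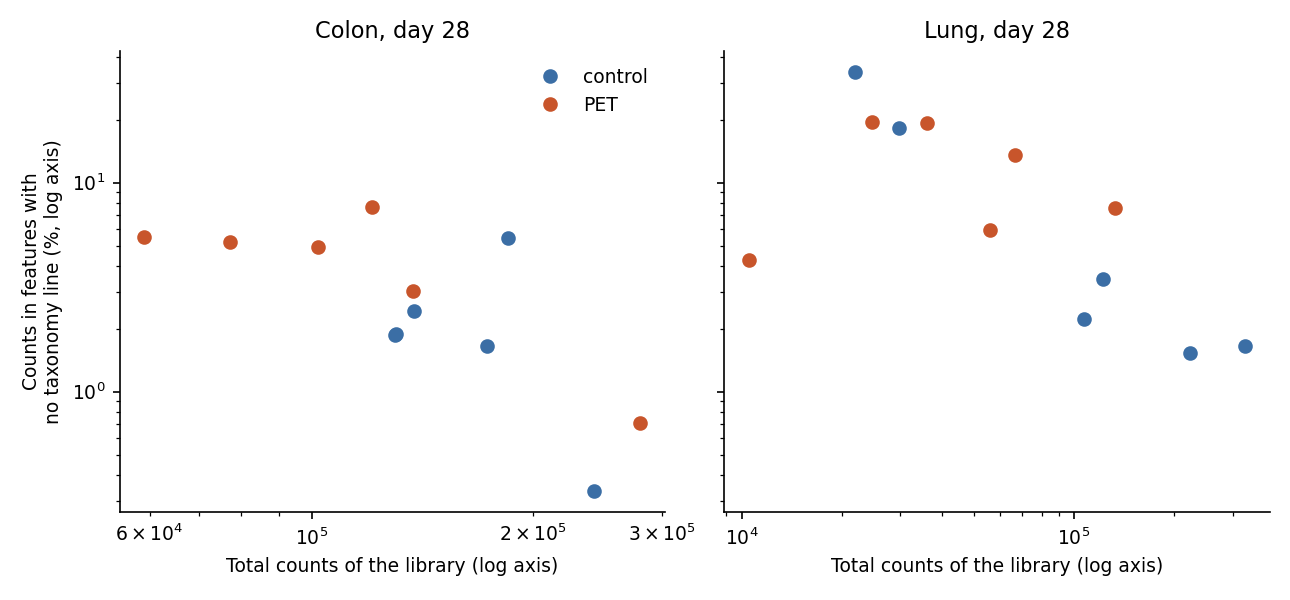
Share of counts in features with no taxonomy line (percent, log axis) against the total counts of the library (log axis), for the 12 colon and the 12 lung libraries, with control in blue and PET in orange. Shares fall from left to right in colon, and in lung the 2 control libraries of lowest total have the 2 largest control shares, 18.2% and 33.96%.

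The arms were compared for each kind of sample by exact two-sided permutation tests of 6 against 6 libraries, for which the smallest possible p is 0.00216, adjusted over 19 tests. Arms overlapped at every site. In colon the unlisted share was 4.49 ± 2.36% in PET and 2.26 ± 1.70% in control libraries (SD, n = 6 each), a difference of 1.08 ± 0.73 log2 units (SE, exact permutation p = 0.173, adjusted 0.548). In lung it was 11.7 ± 6.80% and 10.2 ± 13.3%, a difference of 1.06 ± 0.87 (exact permutation p = 0.238, adjusted 0.646). Leaving out 1 library at a time, the colon difference ran from 0.61 without control 1 (exact permutation p = 0.357, adjusted 0.754) to 1.55 without PET 6 (exact permutation p = 0.0195, adjusted 0.185). The lung difference ran from 0.73 without control 2 (exact permutation p = 0.413, adjusted 0.873) to 1.63 without control 6 (exact permutation p = 0.0563, adjusted 0.239). In swabs it was 2.50 ± 1.47 (exact permutation p = 0.102, adjusted 0.387), or 1.30 without PET 5 (exact permutation p = 0.199, adjusted 0.631). Stool gave 1.40 ± 1.14 at week 1 (exact permutation p = 0.275) and 0.37 ± 0.77 at day 28 (exact permutation p = 0.896). The PET libraries of colon and lung also had fewer counts in all, with medians of 111322 against 155574 in colon and 45970 against 114839 in lung, and the part of depth in these differences was not tested.

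The number of unlisted features at a common depth was 63.5 ± 31.6 in colon PET and 43.4 ± 20.9 in colon control libraries (SD, n = 6 each, exact permutation, adjusted p = 0.472 over 10 tests). In lung it was 54.2 ± 26.01 and 30.6 ± 20.5 (exact permutation, adjusted p = 0.325). Of the 355 unlisted features of colon, 66 (18.6%) occurred in both arms, against 31.3% of classified features. In lung 64 of 371 (17.3%) did, against 15.9%.

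No single member of either class passed in the fits of PET against control, made by edgeR over all features at each site. Of all features tested, 2.29% were called in colon (12 of 524), and 0% in lung (508 tested), in swabs (471), in stool at week 1 (733) and in stool at day 28 (742). Of the 56 unlisted features tested in colon 0 passed, with 6 at an unadjusted p under 0.05 in edgeR and 0 called by DESeq2. Of the 53 tested in lung 0 passed, with 5 at an unadjusted p under 0.05 in edgeR and 0 called by DESeq2. Over all features the unadjusted p was under 0.05 for 45 in colon and 62 in lung. U1 differed by 0.67 ± 1.54 log2 units in colon (SE, edgeR adjusted p = 0.991) and by 0.62 ± 1.22 in lung (edgeR adjusted p = 0.964). In swabs U1 had 4195 PET and 196 control counts (edgeR log2 change 3.82 ± 1.33, adjusted p = 0.337), with a share of 2.56% in PET 5 and at most 0.0699% in the other swab PET libraries. Without PET 5 its change was 2.01 ± 1.08 (edgeR adjusted p = 0.989). Of the 8 unlisted features tested in swabs 0 passed, with 4 at an unadjusted p under 0.05 in edgeR, beside 34 of all 471, and 0 called by DESeq2. Of the 4, U3, U6 and U12 had 0 control counts. Without PET 5, which held 83.4% of the unlisted swab counts, 3 unlisted features could be tested, with 0 at an unadjusted p under 0.05, beside 30 of all 437. Stool allowed a test of 1 unlisted feature at week 1 and of 2 at day 28, of which 0 passed in edgeR or DESeq2, with 0 and 1 at an unadjusted p under 0.05, beside 58 and 44 of all features. The 1 was U2, with 14 counts in 3 control libraries and 0 in PET libraries.

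The unlisted features below an unadjusted p of 0.05 in the tissues were small ones with no control count. Each passed the filter through PET libraries alone, so its direction followed from the filter and its p supports nothing. U48, chosen here after its values were seen because it was among them in both tissues, had 32 counts in 4 colon PET libraries and 27 in 3 lung PET libraries, with 0 in the controls of either tissue (edgeR adjusted p = 0.136 in colon and 0.128 in lung). U41 and U43, also chosen after their values were seen, had 31 and 32 counts in 3 colon PET libraries each and 0 in colon controls (edgeR adjusted p = 0.136 for both).

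The labelled class was far smaller and was spread more widely over sites. It held 7694 counts (0.0447%), with 4747 in chloroplast features, 2924 in mitochondria, 2 in the eukaryote feature and 21 in unassigned features. Colon and lung held 23.7% of its counts, against 93.9% of the unlisted counts and 17.1% of all counts. By pooled share lung stood highest (0.119%), followed by swabs (0.0559%), week 1 stool (0.0543%), colon (0.0249%) and day 28 stool (0.0169%). A count was found in 44 of 60 libraries. Of the 33 features 26 (78.8%) were seen in 1 library and 4 in 10 or more. Chloroplasts are the photosynthetic organelles of plants and algae, and the mitochondrial names given here are those of plants where any species is named.

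Among chloroplast features, CP1 and CP2 (numbered by total count) had near-opposite distributions. CP1 (d84065c2), named only as chloroplast, held 1626 counts in 10 libraries and was not found in stool. It made up 1.05% of lung PET 3, 0.204% of lung PET 2, 0.119% of lung PET 1, 0.0854% of lung PET 6, 0.0341% of lung PET 4 and 0.0376% of lung control 1. In colon it made up 0.0746% of PET 3 and 0.356% of PET 4, and in swabs 0.0393% of PET 2 and 0.00940% of control 3. It was thus found in 5 of 6 lung PET libraries, in 1 of 6 lung controls and in no colon control.

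CP2 (600312cd), which carries the name of rice, Oryza sativa, at a classifier confidence of 0.761, held 1555 counts in 23 libraries, all stool or swab. Its highest share was 0.0777%, in stool week 1 control 6, and it was detected in 8 week 1 stool, 10 day 28 stool and 5 swab libraries. Only 1 library, swab PET 2, held both CP1 and CP2. CP3 held 866 counts, 98.2% of them in swab PET 4, and CP4 held 228 counts in 7 libraries. Of the 19 chloroplast features 16 had no name below chloroplast, and 14 were seen in 1 library. Lung PET 3 alone held 5 of them.

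Mitochondrial features were spread over sites much as CP2 was. MT1 (e8b7de4c), which carries the name of wheat, Triticum aestivum, at a confidence of 0.846, held 1617 counts in 21 libraries. It had 907 counts in 8 week 1 stool libraries, 353 in 8 day 28 stool libraries, 346 in 4 swabs, 11 in 1 lung library and 0 in colon. It occurred together with CP2 in 17 libraries. MT2 (9af37349), with no species name, held 1173 counts in 15 stool and swab libraries. The highest counts of CP2, MT1 and MT2 all came from stool week 1 control 6, whose labelled share of 0.223% was the highest of any stool library. The other 6 mitochondrial features were seen in 1 library each.

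The eukaryote feature EK1 held 2 counts in 1 stool library. The 5 unassigned features UA1 to UA5 held 10, 5, 2, 2 and 2 counts, in 1 library each, and carried confidences from 0.332 to 0.946. At such counts nothing can be said of their sites.

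**Figure D5:**
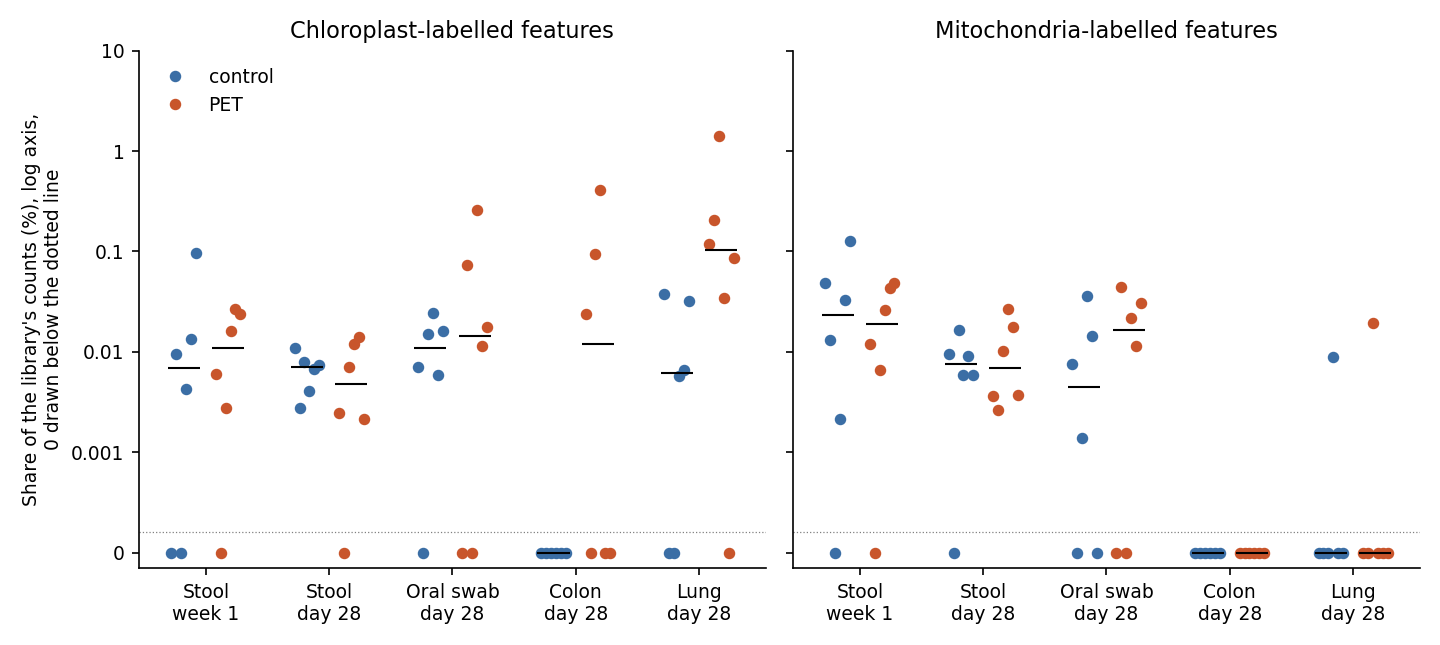
Share of each library's counts in chloroplast features and in mitochondrial features, in 2 panels, in percent on a log axis with 0 drawn below the dotted line; each point is 1 library, blue for control and orange for PET, and black lines are group medians. Mitochondrial features are at 0 in all 12 colon libraries and in 10 of 12 lung libraries, and chloroplast features reach their highest share in lung PET 3.

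Between sites the labelled class as a whole gave no stable order. Its share was 0.0439 ± 0.118% in colon, 0.165 ± 0.409% in lung, 0.0497 ± 0.0795% in swabs, 0.0158 ± 0.0115% in stool at day 28 and 0.0467 ± 0.0612% in stool at week 1 (SD, n = 12 each). Any labelled count was found in 4 of 12 colon, 9 of 12 lung, 9 of 12 swab, 12 of 12 day 28 stool and 10 of 12 week 1 stool libraries. On the log2 scale colon lay below stool at day 28 by -2.93 ± 1.14 (permutation, adjusted p = 0.0455), although its mean percent was higher. Lung exceeded colon by 3.80 ± 1.47 (permutation, adjusted p = 0.0455). Both calls were lost on leaving out any of 17 of the 24 libraries, with adjusted p up to 0.0654 and 0.0704 (permutation tests). Tissue against stool and swab gave -0.93 ± 0.99 (n = 24 each, permutation, adjusted p = 0.483), or -0.89 without swab PET 5 (adjusted p = 0.53), while the mean percent was higher in tissue (0.105% against 0.0328%).

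Taken apart, mitochondrial features gave the clearer difference. Colon held 0 of 1775611 counts, which allows a share of up to 0.000169%, while stool at day 28 held 513 counts (0.00994%) in 11 of 12 libraries. Since all 12 colon libraries stand at 0, the size of a log2 difference from colon follows from the 0.5 counts added and is not given. Against the floor of 3 counts over the colon libraries, mitochondrial counts were at least 58.8-fold higher in day 28 stool and at least 92.7-fold higher in swabs (93.7-fold without swab PET 5). Lung held 24 mitochondrial counts in 2 libraries, and its difference from stool did not pass (-2.03 ± 0.86, permutation, adjusted p = 0.0544). Tissue was lower than stool and swab by -2.65 ± 0.67 (n = 24 each, permutation, adjusted p = 0.00136), or -2.59 without swab PET 5 (adjusted p = 0.00256). A count was found in 2 of 24 tissue and 19 of 24 other libraries, so the sizes of these differences also depend on the 0.5 added.

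Chloroplast features did not differ detectably between tissue and the other samples (-0.05 ± 0.9996, n = 24 each, permutation, adjusted p = 0.957; -0.0060 without swab PET 5), with CP1 and CP2 on opposite sides. Lung exceeded colon by 3.88 ± 1.50 (n = 12 each, permutation, adjusted p = 0.0455), a call lost without any of 16 of the 24 libraries. Of the 5 labelled features that passed the filter of the edgeR fit of tissue against stool and swab, 2 had an estimate and were called lower in tissue, beside 11.7% of all features tested. These were CP2 (-6.88 ± 1.47 log2 units, edgeR adjusted p = 4.11e-05), with 0 tissue counts, so that its direction followed from the filter, and at least 64.4-fold lower in tissue, and MT1 (-5.94 ± 1.42, edgeR adjusted p = 0.000282), 21.1-fold lower by pooled share. MT1 had tissue counts in 1 lung control library alone, so its direction largely followed from the rule for an estimate. CP1 was 22.6-fold higher in tissue by pooled share, and that fit gave no estimate for it. CP1 was higher in tissue by 3.78 ± 1.58 with tissue as 1 term (edgeR adjusted p = 0.0309) and was called higher by DESeq2 (adjusted p = 0.0018). The fit with 1 term called 1 labelled feature higher and 3 lower, beside 31.7% and 26.2% of all features tested. DESeq2 called 1 higher and 2 lower, beside 231 and 345 of all 1576. Of the 1435 tissue counts of CP1, 700 came from lung PET 3.

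With all 12 libraries of a site and time, the labelled share followed depth nowhere past the correction. In colon r was -0.52 (n = 12, permutation p = 0.0794, adjusted 0.364) and rho -0.69 (permutation p = 0.0172, adjusted 0.127). Without the 2 libraries of most extreme total r was -0.82 (permutation p = 0.00175, unadjusted), which is low enough to pass over 20 relations. Of the 12 colon libraries 8 had no labelled count, and on the log2 scale these stand at 0.5 counts over their total. In lung r was -0.16 (permutation p = 0.617) and rho -0.03 (permutation p = 0.938).

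Exposure arms of the labelled class differed most in colon, without passing. The 6 colon control libraries had 0 labelled counts of 998845, while the PET libraries had 29, 0, 96, 315, 0 and 2. The difference was 4.69 ± 1.72 log2 units (SE, n = 6 each, exact permutation p = 0.00649, adjusted 0.123). Since all 6 controls stand at 0, the size of this difference depends on the constant added to the counts. The difference passed without colon PET 2 (exact permutation p = 0.00216, adjusted 0.0411), but this pass is not read. Colon PET 5 also held 0 labelled counts. On the log2 scale it stood at -16.85, above the highest control (-17.99), only because its total was lower (59063 against 129949 counts). Against the floor of 3 counts over the controls, the PET share was at least 189-fold higher, or at least 60.4-fold without colon PET 4, which held 315 of the 442 counts. The 442 counts were 440 chloroplast counts and 2 of UA4.

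In lung the labelled share was 0.119%, 0.204%, 1.45%, 0.0341%, 0% and 0.0854% in the PET libraries and 0.0382%, 0%, 0%, 0.0147%, 0.00654% and 0.0319% in the control libraries. The arms overlapped, with PET 1 to PET 3 and PET 6 above every control. The difference was 3.68 ± 1.74 log2 units (n = 6 each, exact permutation p = 0.0628, adjusted 0.298), and for chloroplasts alone 3.89 ± 1.71 (exact permutation p = 0.0476, adjusted 0.298). CP1, the only labelled feature tested in lung, gave 4.84 ± 2.22 (edgeR adjusted p = 0.317). Stool and swabs gave labelled differences from -0.25 ± 2.10 to 0.26 ± 2.21 (exact permutation, adjusted p = 0.985 for each). Whether the exposure difference itself varied between sites was tested for 7 pairs of sites or times in 4 overlapping measures (both classes, chloroplasts and mitochondria), 25 tests in all, and 0 passed the correction by permutation of arm labels within sites, with 3 at an unadjusted p under 0.05.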

How the data were processed

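Amplicons of 16S rRNA regions V3 and V4 were read in pairs, 300 bases each way, per the labels' protocols. The deposited table holds counts per feature and library as whole numbers with no normalization. The deposited taxonomy table holds lineages for 7955 features, each with the classifier's confidence as a fraction. Per the submitters' processing notes, Bowtie2, cutadapt and the mouse build GRCm39 were used, with no version or role, and the sources used here name no denoiser or classifier. Whether reads were removed by alignment before deposit is not stated, and such a step would change the shares. No 2 libraries were identical.

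The classes and lists were set with earlier results of these data known, though a feature's class follows from its taxonomy line alone. Named features are the 10 of highest total and the 5 in most libraries of each class, and members past the threshold. Class shares, log2((counts + 0.5)/(total + 1)), were compared by exact permutation tests (6 against 6, 924 arrangements) or 100000 resamples, with Benjamini-Hochberg adjustment and a threshold of 0.05. Colon mitochondria were 0 in both arms, which left 19 of 20 exposure tests. The tests of mitochondria between lung and colon (24 counts in 2 libraries against 0), and between colon and stool or swab, rest on the 0.5 added for colon and are not read. Feature counts were tested with edgeR 4.0.16 (quasi-likelihood F test). Normalization was TMM within a site and library totals across sites, for features with at least 10 counts and 3 libraries. The fits were also run on simulated counts, drawn from shares pooled over the libraries of a fit. These do not reproduce groups with 0 counts, so that run says nothing of features without an estimate. DESeq2 1.42.0, other normalizations and filters, the features seen in 1 library, U1, single libraries and arms left out were alternatives. Python 3.11.15, scipy 1.17.1 and R 4.3.3 were used. No label ties libraries to animals, so nothing was paired.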

Additional observations from a re-analysis of the deposited data

Results flagged for a closer look

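Each group of 6 libraries was taken in each of 4 overlapping measures, which gave 36 sets with a count. The lowest and highest shares of each set were checked for a gap to the nearest library that exceeded Dixon's 95% critical value. Chance flags about 1 in 20 independent sets, and 6 flags were found, all at shares of 0. The labelled share contains the chloroplast and mitochondrial shares, so the sets are not independent and the flags are not read against that rate. Stool week 1 PET 2 and swab control 2 were each flagged in more than 1 measure. The unlisted share was 0% in stool day 28 control 6, while the other 5 controls lay between 0.00246% and 0.00488%. The labelled share was 0% in stool week 1 PET 2 and 0% in swab control 2. The chloroplast share was 0% in swab control 2. The mitochondrial share was 0% in stool day 28 control 2 and 0% in stool week 1 PET 2. A library at 0 lies far from its group on the log2 scale, where it takes the value of 0.5 counts.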

How the results depend on the processing

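Of 1605 alternatives over the class shares, feature numbers, depth relations and counts of calls, 1425 kept direction and side of the threshold, 47 reversed, 91 lost and 17 gained a call, and 25 counts moved by over 1.5 times. Unlisted shares of tissue against stool or swab kept both in 219 of 219. The cause of the changes below was not tested. Differences are in log2 units unless a percent is named.

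Without log, in percentage points, PET minus control in stool at day 28 was -0.00021 for unlisted and 0.00272 for labelled shares, both turned. Stool at day 28 against week 1 passed (0.00162), labelled colon against stool (0.0281), swab against stool (0.0339) and tissue against the others (0.0718) turned, and labelled lung against colon (0.121) no longer passed. Without features seen in 1 library, labelled day 28 stool by arm turned (0.089) and unlisted stool by time passed (1.70). Without the leading feature of the class, unlisted day 28 stool by arm turned (-0.56) and unlisted lung against colon was lost (1.38). Labelled lung turned against stool (-1.84) and swab (-1.50), lost its call against colon (1.52), and labelled tissue against the others passed (-2.43).

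As a percent of detected features, unlisted shares by arm turned in day 28 stool (-0.035) and colon (-0.64), as did labelled day 28 stool (0.018) and unlisted lung against colon (-5.50). Labelled lung against stool (-0.108), swab against stool (0.143) and lung against swab (-0.251) turned, lung against colon was lost (0.113), and colon against swab (-0.363) and tissue against the others (-0.236) passed. Without the 4 libraries whose label numbers form a separate block, day 28 stool by arm turned (-0.19 unlisted, 0.19 labelled), unlisted lung against colon (1.41), labelled colon against stool (-3.01) and labelled lung against colon (3.90) were lost, and unlisted stool by time passed (2.12). With 1 added share for all libraries, chosen after seeing the data, unlisted lung against colon (1.47), labelled colon against stool (-2.14) and labelled lung against colon (1.79) were lost, unlisted stool by time passed (0.50) and labelled swab against stool turned (0.023).

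In control libraries alone, unlisted lung against colon was lost (1.48), labelled lung turned against stool (-0.98) and swab (-0.65), and labelled colon against swab (-4.96) and tissue against the others (-2.97) passed. In PET libraries alone, unlisted lung against colon (1.46), labelled colon against stool (-0.56) and labelled lung against colon (3.29) were lost, and labelled tissue against the others turned (1.10). At each library's own depth, lung minus colon in unlisted features turned (-0.583). The lung depth relation of the unlisted share turned in PET libraries (r = 0.14, n = 6) and between counts (0.29, n = 12). It passed without the 2 libraries of most extreme total (r = -0.90).

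DESeq2 called 8 features in week 1 stool, 21 in day 28 stool, 5 in lung, 7 in swabs and 576 in tissue against stool and swab. With tissue as 1 term, chosen after seeing the data, 912 features were called there, 100 of them unlisted, and 266 of the 377 called by group means were among them. Without a low count filter 15, 31 and 2 features were called in week 1 stool, day 28 stool and colon, and 0 in colon with a stricter filter. Members called by arm were 0 in each of these.

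Leaving out 1 library at a time, unlisted differences ran from -0.37 to 0.63 by arm in day 28 stool, from 1.21 to 1.67 for lung against colon and from 1.42 to 2.01 for stool by time. Labelled differences by arm ran from -1.61 to 1.12 in week 1 stool, -0.45 to 0.33 in day 28 stool, 3.56 to 5.59 in colon and -0.95 to 1.51 in swabs. Between sites they ran from -3.66 to -2.66 for colon against stool, -0.62 to 0.37 for swab against stool, -3.47 to -2.31 for colon against swab, 3.25 to 4.53 for lung against colon and -0.84 to 0.16 for stool by time. Unlisted features at a common depth by arm in day 28 stool ran from -0.431 to 0.145. Calls by arm ran from 0 to 10 in colon and from 0 to 1 elsewhere.

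No paired analysis was possible because the labels tie no library to an animal or replicate number across arms, sites or times. Single libraries decide small classes: labelled and stool values rest on few counts, and at the lowest total of 10543 counts a share under the value of 3 counts cannot be seen.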
